A study of Mus musculus with 12 samples.

Results

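Lix1, Cyp4f39, Fam169a and Islr were among the genes with the largest falls in N2A cells stably depleted of Dali, a non-coding transcript made near the transcription factor gene Pou3f3. They were selected on those falls, the differences between knockdown (KD) and control cells in both culture states, so these differences are given as a description and without a test. The 4 genes were 4 of 19938 measured by a probe set with a single gene symbol, each by 1 probe set, and all 4 were among the 9969 genes kept by the filter on variance. N2A is a mouse neuroblastoma line that puts out neurites when treated with retinoic acid (RA), and RNA was measured on 12 single-colour whole-transcript arrays.

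The groups, of 3 arrays each, were KD cells after RA, control cells after RA, proliferating KD cells and proliferating control cells. RA-treated cells had spent 72 h in 20 uM all-trans retinoic acid with 2% serum, against 10% serum in the growth medium, so the RA and serum parts of that change cannot be told apart. KD cells carried a stably integrated short hairpin RNA against Dali and control cells a scrambled hairpin, and both were hygromycin-selected. According to the study's methods, resistant clones were grown from single colonies, with several KD lines and a single control line. The labels do not say which line or culture an array holds, while the methods call the samples of a group biological replicates. The p-values cover no more than the spread among these arrays, and a difference between KD and control cells may include differences between clones, which cannot be told apart from the knockdown. In bulk RNA, fewer cells expressing a gene and less of its RNA per cell cannot be told apart either.

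The 4 genes belong to different families, and no pathway is known to hold all of them. Lix1 was named for its expression in the embryonic limb, and in the chick its product acts on the Hippo pathway effector YAP1 in stomach mesenchyme. Cyp4f39 encodes a cytochrome P450 that adds a hydroxyl group to the end of very long fatty acids, a step in making the acylceramides of the skin barrier. Fam169a encodes a lamin-associated protein of the nuclear envelope. Islr, also called meflin, encodes an immunoglobulin-domain protein with leucine-rich repeats and marks mesenchymal stromal cells. None of the 4 is a defining gene of neurons or neuroblasts.

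No probe set was assigned to Dali, so its level on these arrays is unknown. The median log2 value of an array was 7.15 to 7.21, and arrays of 1 group correlated at 0.992 to 0.996. All 8 measured markers of sympathoadrenal neuroblasts were above the 95th percentile of the sensory receptor genes described below. All 8 were tested, and 5 of them (Hand2, Isl1, Mycn, Th and Dbh) were called higher in proliferating KD cells, where 3.96% of all genes tested were. After RA Phox2a and Dbh were called, 1 of them higher and 1 lower, and which of them rose is not given here. Of all genes 3.71% were called higher and 4.0% lower in that state. Of 8 fibroblast markers, which bear on Islr, 5 were above that percentile and Dcn, Lum and Postn were below it. Their mean level was 6.34 to 6.54 in KD cells after RA, 6.43 to 6.55 in control cells after RA, 6.34 to 6.41 in proliferating KD cells and 6.42 to 6.46 in proliferating controls. By limma none of the 5 that were tested was called in KD cells in either state, and 1 of the 8 had an unadjusted p under 0.05 in each. The part of these markers in the results was not tested.

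The sequences just before the annotated starts are shown so that the promoters of genes that fell together can be compared. The study also examined DNA methylation at CpG-rich promoters, so CG dinucleotides are in capitals. RefSeq (GRCm38.p6) gave 5 windows of 250 bases for the 4 genes, on the sense strand of each gene, and it is not known which start N2A cells use. The Lix1 window was chr17:17402436-17402685 on the plus strand, and that of Cyp4f39 was chr17:32452473-32452722 on the plus strand. Fam169a had 2 windows on the plus strand, chr13:97067037-97067286 and chr13:97071393-97071642, and Islr had 1 on the minus strand, chr9:58158555-58158804.
Lix1: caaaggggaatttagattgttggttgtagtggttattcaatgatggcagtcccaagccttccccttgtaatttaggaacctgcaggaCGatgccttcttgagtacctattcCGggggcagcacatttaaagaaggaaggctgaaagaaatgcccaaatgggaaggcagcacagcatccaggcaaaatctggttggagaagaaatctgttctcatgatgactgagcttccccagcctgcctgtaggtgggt
Cyp4f39: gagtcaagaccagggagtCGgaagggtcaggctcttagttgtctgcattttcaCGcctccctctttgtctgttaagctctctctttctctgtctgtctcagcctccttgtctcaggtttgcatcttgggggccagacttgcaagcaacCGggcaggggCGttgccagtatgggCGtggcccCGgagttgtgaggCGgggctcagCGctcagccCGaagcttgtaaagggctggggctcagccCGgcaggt
Fam169a, upstream start: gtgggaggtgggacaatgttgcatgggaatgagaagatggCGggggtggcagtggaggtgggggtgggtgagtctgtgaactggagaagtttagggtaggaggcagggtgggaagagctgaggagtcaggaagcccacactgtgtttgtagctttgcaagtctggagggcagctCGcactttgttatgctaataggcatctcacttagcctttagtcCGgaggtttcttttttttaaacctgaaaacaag
Fam169a, downstream start: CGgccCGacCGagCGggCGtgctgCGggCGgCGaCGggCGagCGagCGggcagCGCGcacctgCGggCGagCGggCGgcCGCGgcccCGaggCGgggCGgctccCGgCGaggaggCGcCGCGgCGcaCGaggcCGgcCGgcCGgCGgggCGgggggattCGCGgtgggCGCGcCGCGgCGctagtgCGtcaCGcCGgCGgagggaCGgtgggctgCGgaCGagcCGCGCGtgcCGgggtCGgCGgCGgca
Islr: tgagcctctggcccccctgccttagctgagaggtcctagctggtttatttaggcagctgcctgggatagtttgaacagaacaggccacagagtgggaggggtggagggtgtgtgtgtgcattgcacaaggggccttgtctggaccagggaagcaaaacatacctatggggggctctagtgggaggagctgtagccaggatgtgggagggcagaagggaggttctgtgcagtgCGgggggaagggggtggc

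These windows differed widely in CG content. The downstream Fam169a window held 56 CG and was 86% G or C, and 0 of 32851 windows held more. Cyp4f39 held 10 CG, and 62.2% of windows held fewer. The other windows were below the median of 6 CG, with 3 in the upstream Fam169a window, 2 in that of Lix1 and 1 in that of Islr. A CG-rich start was thus not shared by the 4 genes. The octamer ATGCAAAT, bound by POU-domain factors, stood in 0 of the 5 windows and in 1.6% of all windows of this length, read on both strands. The same held for the nuclear receptor half-site AGGTCA (0 of 5 against 14%) and for TATAAA (0 of 5 against 12.4%), and with no match no overlap of motifs arose. This says only that those letters are not in these windows.

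Lix1 was the gene with the largest fall in KD cells after RA and, in KD cells, the one of the 4 whose level differed most between the states. Its log2 level was 5.45, 5.85 and 5.43 in KD cells after RA, against 8.65, 8.53 and 8.62 in control cells after RA. In proliferating cells it was 6.05, 6.04 and 6.35 in KD cells, against 8.29, 8.40 and 8.34 in controls. The lowest control array was above the highest KD array by 2.68 after RA and by 1.95 in proliferating cells, and the KD arrays of the 2 states did not overlap either. The difference was -3.02 after RA (SE 0.11), which left KD cells at 12.3% of the control level (95% interval 10.4% to 14.5%). It was -2.20 in proliferating cells, or 21.8% of the control level (18.5% to 25.7%).

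Cyp4f39, the fatty acid hydroxylase, fell to much the same level in both states. Its KD arrays read 6.34, 6.39 and 6.14 after RA, against 7.90, 8.05 and 7.90 in controls after RA. Proliferating KD cells had 6.16, 6.27 and 6.32, against 8.17, 8.11 and 7.98 in proliferating controls. The KD arrays of the 2 states overlapped, and the lowest control array was above the highest KD array by 1.51 after RA and by 1.66 in proliferating cells. KD cells kept 31.6% of the control level after RA (28.1% to 35.6%, a log2 difference of -1.66, SE 0.08) and 28.0% in proliferating cells (24.8% to 31.5%, a difference of -1.84).

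Fam169a, the nuclear envelope gene, likewise fell to much the same level in both states. It had log2 levels of 6.92, 6.80 and 6.70 in KD cells after RA, against 8.63, 8.65 and 8.43 in control cells after RA. In proliferating cells the levels were 6.82, 6.72 and 6.60 in KD cells, against 8.46, 8.45 and 8.30 in controls. The gap between the lowest control array and the highest KD array was 1.52 after RA and 1.49 in proliferating cells, and the KD arrays of the 2 states overlapped. This left 29.4% of the control level after RA (26.0% to 33.2%, a difference of -1.77, SE 0.08) and 30.9% in proliferating cells (27.3% to 34.9%, a difference of -1.70).

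Islr, the stromal gene, had the highest control readings of the 4. KD arrays had 8.57, 8.49 and 8.49 after RA, against 10.10, 10.14 and 10.09 in control arrays after RA. Proliferating KD cells had 8.87, 8.89 and 8.76, against 10.38, 10.49 and 10.37 in proliferating controls. Its lowest control array was above its highest KD array by 1.52 after RA and by 1.48 in proliferating cells, yet the KD level of Islr was close to the control levels of Lix1 and Fam169a. Levels of different probe sets are not on a common scale of RNA amount, so this places the readings only. KD cells had 33.2% of the control level after RA (30.7% to 35.9%, a difference of -1.59, SE 0.05) and 33.5% in proliferating cells (31.0% to 36.3%, a difference of -1.58).

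**Figure D1:**
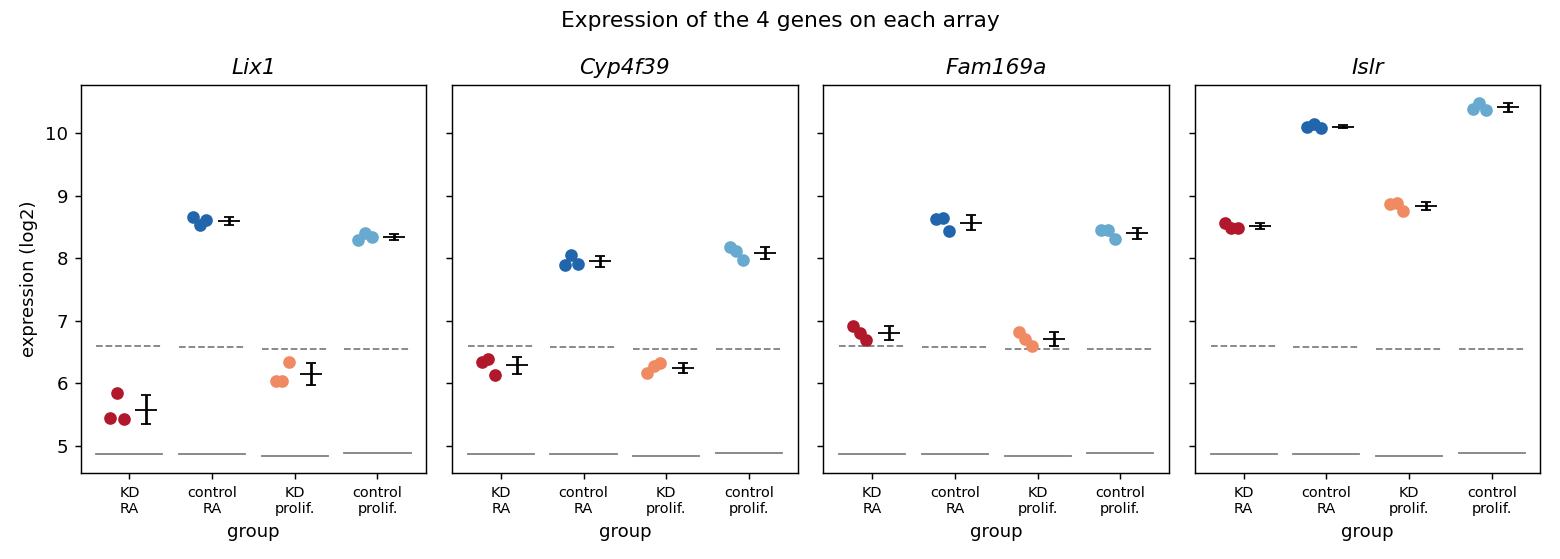
Log2 expression of Lix1, Cyp4f39, Fam169a and Islr on each of the 12 arrays, with 1 panel per gene, points for arrays and bars for the group mean ± SD (n = 3). The grey solid line is the median and the dashed line the 95th percentile of 1228 sensory receptor genes in each group; KD points of Lix1 and Cyp4f39 lie below the dashed line on average, those of Fam169a just above it and those of Islr far above it.

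The 4 genes stood close together at the low end of the whole list, which is how they were chosen. Among all genes tested, 4.0% were called lower in KD cells after RA (7.71% in either direction) and 3.0% in proliferating cells (6.96% in either direction). After RA the lowest ranks went to Lix1, Tmsb4x (-2.99), Capn6 (-2.73), Fam169a, Cyp4f39 and Islr, and just outside came Kcna4 (-1.53), Arhgdib (-1.53) and Isoc1 (-1.5). In proliferating cells the order was Tmsb4x (-4.01), Capn6 (-2.88), Lix1, Fut11 (-2.07), Arhgdib (-2.01), Cyp4f39, Fam169a and Islr. The next genes there were Igfbp5 (-1.3) and Il13ra1 (-1.29). The median difference of the 4 genes was -1.71 after RA and -1.77 in proliferating cells, beside -0.02 and -0.01 over all genes tested.

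Whether the loss went to background was asked with a stand-in, because detection p-values are not used here. The levels were set against those of 1228 genes for olfactory, vomeronasal and bitter taste receptors, which are expected to be silent in neuroblastoma cells. Their median was 4.88 in KD cells after RA, 4.88 in control cells after RA, 4.84 in proliferating KD cells and 4.89 in proliferating controls, and their 95th percentile was 6.60, 6.58, 6.56 and 6.56 in the same order. Probe sets differ in affinity, and a truly silent gene can sit anywhere in this range. A level inside it therefore cannot be told apart from no expression, and a log2 difference that ends there may be smaller than the true one.

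Lix1 and Cyp4f39 came down into the range of the sensory receptor genes. Lix1 averaged 5.58 ± 0.24 in KD cells after RA (SD, n = 3), at or above 74.9% of the sensory genes, with 308 of them higher. In proliferating KD cells its mean of 6.15 ± 0.17 was at or above 89.3% of them, with 131 higher. In control cells Lix1 was at 8.60 ± 0.06 after RA and 8.35 ± 0.05 in proliferating cells, where 1 and 2 of the 1228 genes were higher. Cyp4f39 in KD cells was at 6.29 ± 0.14 after RA and 6.25 ± 0.08 in proliferating cells, with 112 and 109 sensory genes higher, against 7.95 ± 0.08 and 8.09 ± 0.10 in control cells, with 3 higher in each state. Both genes thus lay between the median and the 95th percentile of the sensory genes in KD cells, 0.70 above that median for Lix1 after RA, 1.3 for Lix1 in proliferating cells and 1.41 for Cyp4f39 in both states.

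Fam169a stopped at the edge of that range and Islr well above it. Fam169a averaged 6.80 ± 0.11 in KD cells after RA and 6.71 ± 0.11 in proliferating KD cells, which was 0.21 and 0.15 above the 95th percentile, with 39 and 42 sensory genes still higher. In control cells it was at 8.57 ± 0.12 after RA and 8.40 ± 0.09 in proliferating cells. Islr averaged 8.52 ± 0.05 in KD cells after RA and 8.84 ± 0.07 in proliferating KD cells, 1.92 and 2.28 above the 95th percentile, and 1 of the 1228 genes was higher in each state. In control cells Islr was at 10.11 ± 0.03 after RA and 10.42 ± 0.07 in proliferating cells, above all sensory genes. Islr in KD cells was also higher than 68.1% of all 19938 genes after RA and 73.0% in proliferating cells, against 16.4% and 26.7% for Lix1.

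Other genes with large falls ended at different places too. In KD cells after RA, Tmsb4x, which encodes the actin-binding peptide thymosin beta, was at 6.31 and Capn6, a calpain family member, at 6.29, with 91.4% and 90.9% of the sensory genes at or below them. In proliferating KD cells Fut11, a fucosyltransferase gene, was at 6.93, where 97.8% of the sensory genes were at or below it. The potassium channel gene Kcna4 was at 6.51 in KD cells after RA and at 8.04 in control cells after RA, the latter 1.46 above the 95th percentile of that range. In proliferating cells it was at 5.40 in KD cells and at 6.57 in controls, so its control reading there was already at that percentile.

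**Figure D2:**
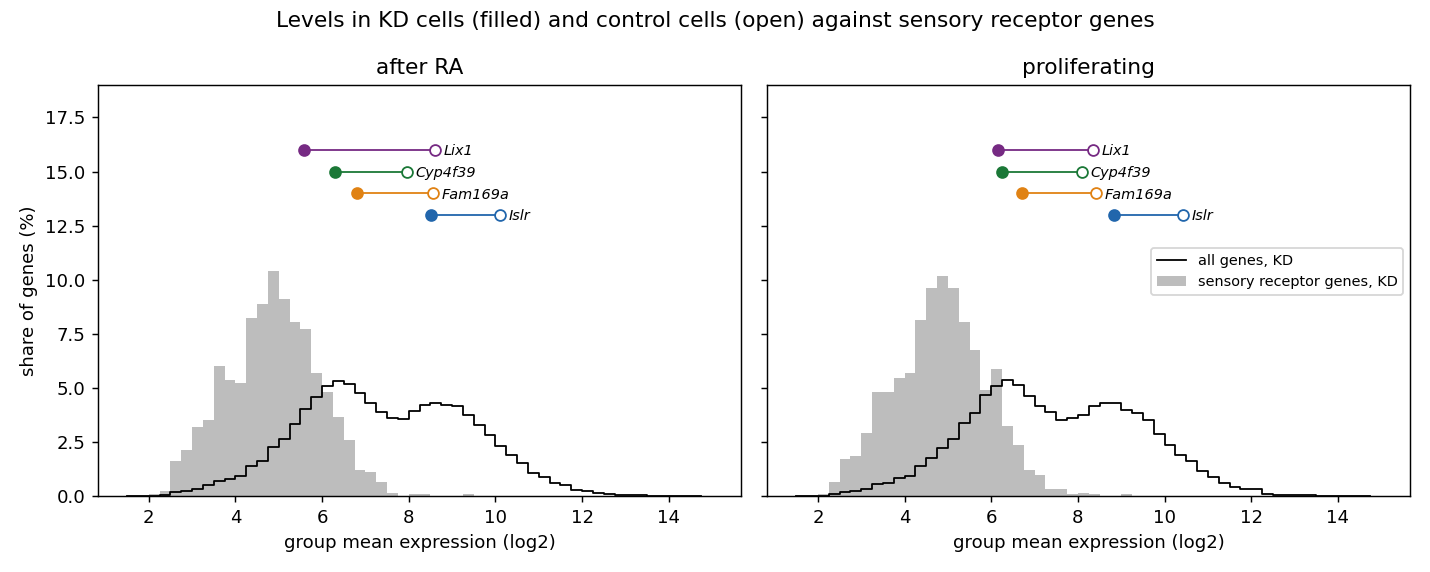
Distribution of group-mean log2 levels of 1228 sensory receptor genes (grey bars) and of all 19938 genes (black line) in KD cells, after RA and proliferating, with the 4 genes marked above (filled, KD; open, control; their height has no meaning). Lix1 and Cyp4f39 in KD cells fall inside the grey bars, Fam169a at their upper edge, and Islr at 8.52 and 8.84 among the expressed genes.

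RA responses were not themselves used to choose the genes and were tested, but they share arrays with the KD differences that were used. A choice on low readings in KD cells can itself shift their RA response, so those p-values are not fully independent of the choice. Lix1 was called lower after RA in KD cells, and Islr was lower in both kinds of cell by less than the fold cutoff. No response of Cyp4f39 or Fam169a passed the p threshold in the main fit. In KD cells Lix1 fell after RA by 0.57 on the log2 scale (95% interval -0.81 to -0.33, adjusted p = 0.00157), to 67.5% of its level in proliferating KD cells, with all 3 RA arrays below all 3 proliferating arrays. This was the 1 call among the 4 genes, where 9.94% of all genes were called. Both levels lie in the range of the sensory receptor genes, where a reading need not come from the transcript. In control cells the Lix1 level was 0.25 higher after RA (0.02 to 0.49), the arrays of the 2 states did not overlap, and the adjusted p of 0.0974 missed the threshold. Of the 4 genes 0 were called for RA in control cells by limma, 2 had an unadjusted p under 0.05 (Lix1 and Islr), and 9.34% of all genes were called.

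Islr passed the p threshold in both kinds of cell but not the 1.3-fold cutoff. After RA it was lower by 0.32 in KD cells (-0.43 to -0.21, adjusted p = 0.000468) and by 0.30 in control cells (-0.42 to -0.19, adjusted p = 0.000715). Its arrays did not overlap between the states in either kind. KD cells after RA kept 80.1% of the level of proliferating KD cells, and control cells after RA kept 81.0%. Cyp4f39 differed between RA and proliferating cells by 0.04 in KD cells (-0.13 to 0.21, adjusted p = 0.752) and by -0.14 in control cells (-0.31 to 0.03, adjusted p = 0.213). Fam169a differed by 0.09 in KD cells (-0.08 to 0.27, adjusted p = 0.428) and by 0.16 in control cells (-0.01 to 0.34, adjusted p = 0.15). For both genes the arrays of the 2 states overlapped, and the intervals reach no further than 0.34 in either direction.

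Whether RA changed the KD difference was read from the interaction, the RA response in KD cells minus the one in controls. It is exactly the difference of the 2 KD differences on which the genes were selected, so it is given as a description, without a test. For Lix1 it was -0.82 (SE 0.15, 95% interval -1.16 to -0.48), the reading in KD cells being further below that of controls after RA. Both Lix1 readings in KD cells were under the 95th percentile of the sensory receptor genes, so the size of this value is not a measure of Lix1 RNA. The other genes gave 0.18 for Cyp4f39 (-0.06 to 0.42), -0.07 for Fam169a (-0.32 to 0.18) and -0.02 for Islr (-0.18 to 0.14), intervals that all hold 0. Of all genes tested 1.24% were called for the interaction, and nothing is read from the 4 genes against that share.

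**Figure D3:**
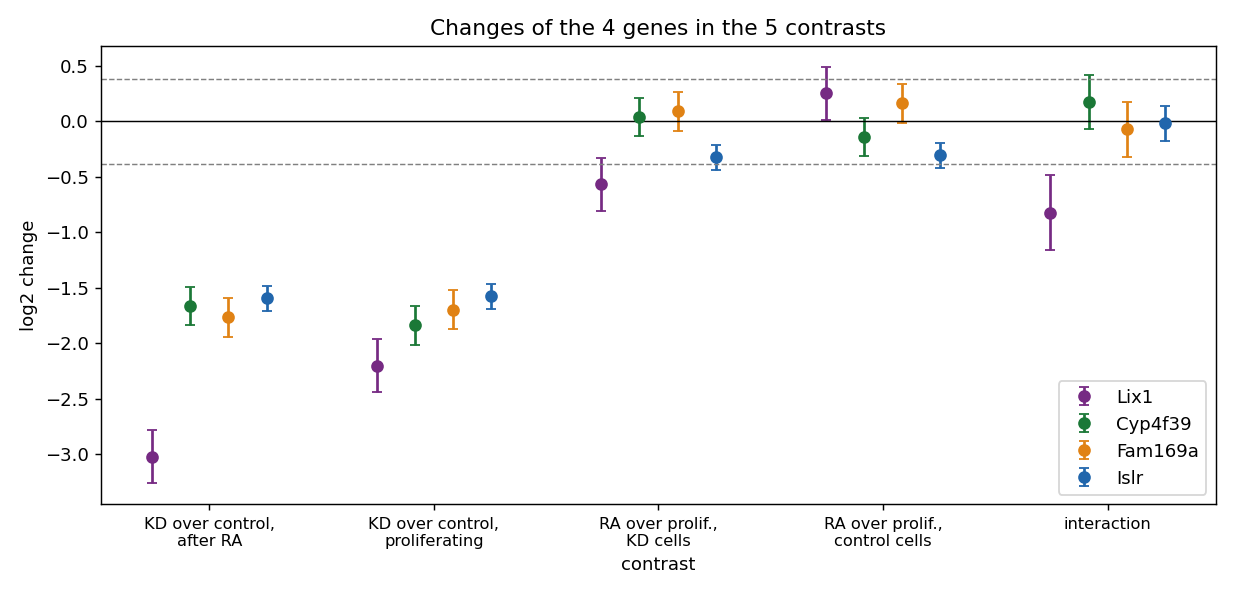
Log2 differences of the 4 genes in the 5 comparisons, with 95% intervals as bars and dashed lines at 1.3-fold. The 8 KD differences lie between -3.02 and -1.58, while of the RA responses and interactions the Lix1 fall in KD cells (-0.57) and the Lix1 interaction (-0.82) lie past the dashed line.

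Of 11 listed paralogs of the 4 genes 10 had a probe set and 6 were tested, and by limma 0 of the 6 were called in KD cells in either state. Of the 10, 1 (Cyp4f13) had an unadjusted p under 0.05 in both. With 7.71% and 6.96% of all genes called, 0 of 6 is near the share over all genes. Lix1l, the only other Lix1 family gene, had 8.76 ± 0.09 in KD cells after RA and 8.83 ± 0.07 in control cells after RA, and 8.89 ± 0.03 in proliferating KD cells and 8.92 ± 0.07 in proliferating controls. Cyp4f16, a P450 gene of the same subfamily, was at 8.55 and 8.54 after RA and at 8.61 and 8.62 in proliferating cells, in KD and control cells. Fam169b stayed in the range of the sensory receptor genes in all groups, with 5.77 in KD cells after RA, 5.84 in control cells after RA, 5.70 in proliferating KD cells and 5.78 in proliferating controls.

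Islr2, the neighbour and paralog of Islr with a role in axon growth, differed from it in its KD difference and resembled it in its RA response. Its level was 9.88 in KD cells after RA and 9.91 in control cells after RA, a difference of -0.03 (adjusted p = 0.708). In proliferating cells it was 10.23 in KD cells and 10.33 in controls, a difference of -0.10 (adjusted p = 0.165). After RA Islr2 was lower by 0.36 in KD cells (adjusted p = 0.000206, under the fold cutoff) and by 0.43 in control cells (adjusted p = 5.33e-05, called). Cyp4f40 was called higher after RA by 0.40 in KD cells (adjusted p = 0.00573) and 0.39 in control cells (adjusted p = 0.00731), and both calls lay close to the fold cutoff. The call in KD cells was lost without KD array 1 or 2 after RA or proliferating KD array 2 (0.34 to 0.35), or with other scaling of the arrays (0.36 and 0.37), and that in control cells without control array 1 or 2 after RA or proliferating control array 2 or 3 (0.34 to 0.36). Its KD differences were 0.03 and 0.02.

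Genes beside the 4 on the chromosome were mostly not called, and those called were mostly higher. Of the 40 nearest measured genes, 5 on each side of each gene, 23 were tested. After RA 4 were called higher and 0 lower (17.4% of those tested), and in proliferating KD cells 3 were called higher and 1 lower (17.4%), which stand beside the 7.71% and 6.96% over all genes. With 10 genes on each side the shares were 12.5% and 10.0%. Lix1 had 0 called neighbours among 5 tested in either state, and the nearest on one side, BC002059 and Riok2, differed by 0.04 and -0.02 after RA and by 0.02 and 0.20 in proliferating cells.

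Around Cyp4f39, on the same chromosome as Lix1, 1 of 6 tested neighbours was called: Rasal3, a Ras GTPase-activating protein gene, was lower by 0.54 in proliferating KD cells (adjusted p = 3.29e-05) and by 0.32 after RA (adjusted p = 0.000863, under the fold cutoff). On one side of Cyp4f39, Cyp4f16 and Cyp4f37 differed by 0.01 and -0.18 after RA. On the side of Rasal3, the nearest gene A530088E08Rik differed by -0.19 after RA (adjusted p = 0.0147) and by -0.24 in proliferating cells (adjusted p = 0.00471). Wiz, beyond Rasal3, differed by -0.22 after RA (adjusted p = 0.00193) and by -0.08 in proliferating cells (adjusted p = 0.185). The differences of Cyp4f16, Cyp4f37, A530088E08Rik and Wiz were all under the fold cutoff. Around Fam169a 3 of 8 tested neighbours were called higher after RA and 2 of 8 in proliferating KD cells, where 3.71% and 3.96% of all genes were, and none was called lower. Its non-coding neighbour Lncenc1 was higher by 0.90 after RA (adjusted p = 1.38e-06) and by 0.87 in proliferating KD cells (adjusted p = 1.42e-06). Cert1, a ceramide carrier gene, was called higher by 0.47 and 0.48 in the same states, and Polk, a DNA polymerase gene, by 0.45 after RA. Beside Islr, 1 of 4 tested neighbours was called, Stra6, which encodes the membrane receptor for retinol uptake. Stra6 was higher in KD cells by 0.64 after RA (adjusted p = 4.64e-05) and by 0.44 in proliferating cells (adjusted p = 0.000513). It was also called lower after RA, by 0.41 in KD cells (0.36 and under the fold cutoff without the first proliferating KD array) and by 0.61 in control cells, while Ccdc33 on the same side differed by -0.04 and -0.02.

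**Figure D4:**
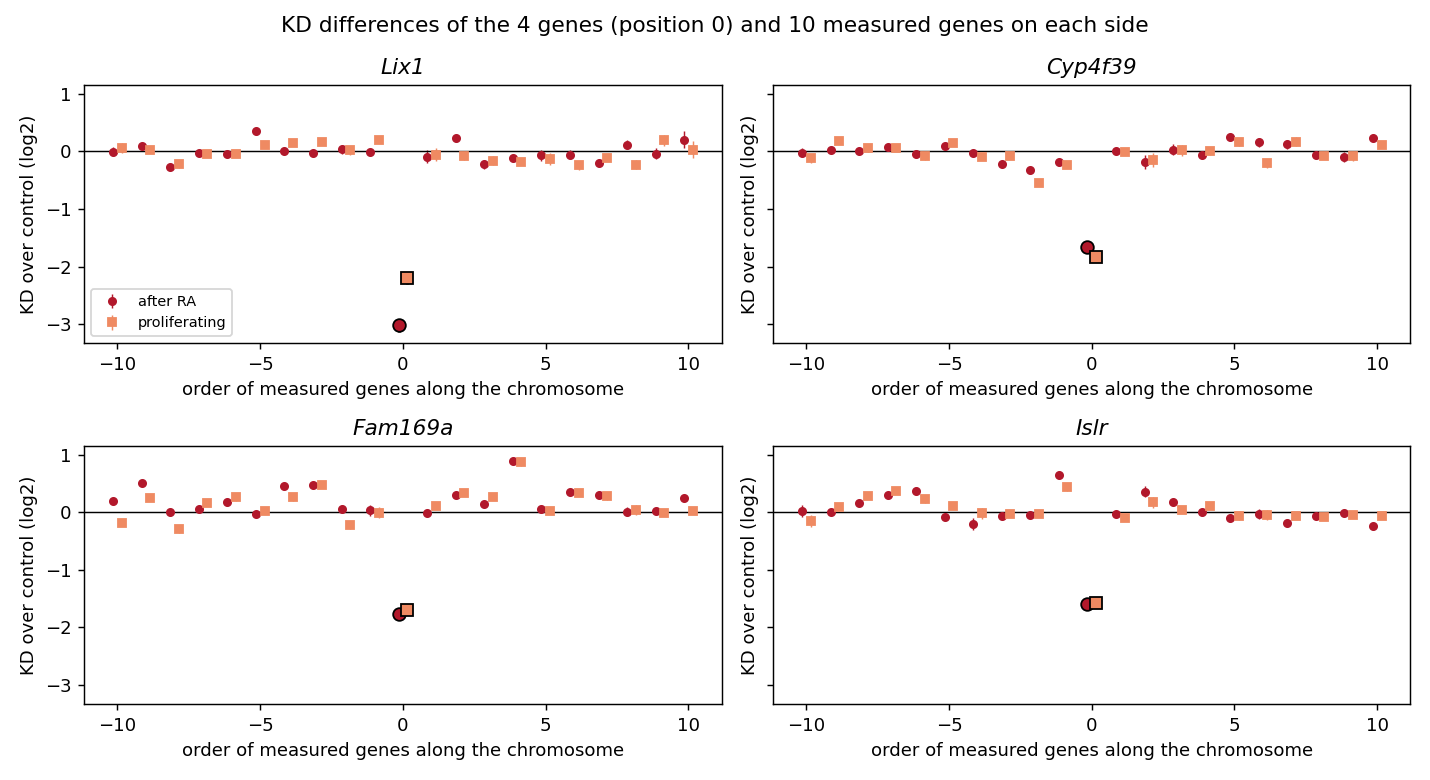
Log2 difference of KD over control cells for each of the 4 genes (black edge, position 0) and its 10 nearest measured genes on each side in RefSeq order, after RA and in proliferating cells, with SE bars. The 4 genes lie at -1.58 or lower while their neighbours lie between -0.54 and 0.90.

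Gene lists around the known roles of the 4 held 0 to 2 called genes each in a state, and about as many of their members had been dropped by the filter on variance as were tested. Over all genes 4.0% were called lower after RA and 3.0% in proliferating cells. Of 13 measured acylceramide genes, the setting of Cyp4f39, 7 were tested and 1 was called: Elovl1, a fatty acid elongase gene, was lower by 0.41 in proliferating KD cells (adjusted p = 0.000213), a call lost without the third proliferating KD array (-0.37). After RA limma called 0 of the 7, with 7 of the 13 at an unadjusted p under 0.05. The share of all genes at that unadjusted p is not given here, so such counts are not shown to exceed it. For KD against control cells, 3726 of the 9969 genes tested passed even the adjusted p threshold of limma after RA. In proliferating cells 3485 did, both counts being without the fold cutoff. The median of the acylceramide list was -0.09 after RA and -0.03 in proliferating cells, beside -0.03 and -0.01 over all 19938 genes. Of 14 measured genes of the YAP pathway, linked to Lix1, 7 were tested and 2 were called lower in proliferating KD cells, the YAP partner gene Wwtr1 (-0.55, adjusted p = 0.000159) and the target F3 (-0.50, adjusted p = 0.000218), and after RA 0 of the 7 were called and 3 of the 14 had an unadjusted p under 0.05. Its medians were -0.09 and -0.06.

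Of 13 measured mesenchymal stromal genes, the setting of Islr, 8 were tested, and 1 was called lower after RA and 2 in proliferating KD cells. Pdgfrb, a growth factor receptor gene, was lower by 0.40 after RA (adjusted p = 0.000264) and by 0.85 in proliferating KD cells (adjusted p = 1.49e-06), and the coreceptor gene Eng was lower by 0.38 in proliferating KD cells (adjusted p = 0.00024). The call of Pdgfrb after RA was lost without the first KD array (-0.35) or the second control array (-0.36) of that state, and that of Eng without the first proliferating control (-0.35) or the third proliferating KD array (-0.35). The list medians were -0.07 in both states. Of 14 measured nuclear envelope genes, the setting of Fam169a, 7 were tested. Of these Banf1 was called lower after RA (-0.40, adjusted p = 0.00162, lost at -0.36 with the mean of probe sets or with array weights, and at -0.37 and -0.33 without array 3 of the controls or of the KD cells after RA), and 0 were called in proliferating KD cells. Of the 14, 7 had an unadjusted p under 0.05 after RA and 4 in proliferating cells, and the list medians were -0.06 and -0.01. Like those of the other lists, these unadjusted counts are not shown to exceed the share over all genes.

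Across the 12 arrays the 4 genes followed one another closely, with Pearson r of 0.961 (Fam169a and Islr) to 0.986 (Cyp4f39 and Fam169a). The arrays fall into groups that differ in these genes by choice, so these values mainly restate the KD difference and are given without a test. The genes most like Lix1 among those tested were Atp8a1 (r = 0.991), Poldip3 (0.987) and Ttll12 (0.983). A correlation does not see size: after RA these 3 were lower in KD cells by 0.35, 0.24 and 0.35, while the Lix1 difference was -3.02. Those most like Cyp4f39 were Capn6 (0.994), the semaphorin receptor gene Nrp2 (0.991) and the neural adhesion gene Nrcam (0.988), with KD differences after RA of -2.73, -0.54 and -1.12. Fam169a was most like Wipi2 (0.992), Mapk8ip2 (0.992) and Ano6 (0.991). Islr was most like the purinergic receptor gene P2rx7 (0.995), Capn6 (0.992) and Sqle (0.991), a sterol synthesis gene. Each of the 4 had 83 to 115 genes with an r over 0.95, or 0.833% to 1.15% of those tested.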

How the data were processed

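RNA of N2A cells was measured on 12 Affymetrix Mouse Gene ST arrays in 4 groups of 3. Each deposited value is the log2 expression of 1 probe set on 1 array, which the authors made by RMA background correction, quantile normalisation and gene-level summary. RMA and limma, without versions, are the tools in the submitters' processing notes. Because the arrays were normalised together, a change in the total RNA of a cell does not show. Scan batches were not known, and precision is limited by the number of arrays.

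Of 35556 probe sets, 21789 had a single gene symbol in the platform annotation, 1621 had several and 12146 were unnamed here. Symbols were checked against RefSeq (GRCm38.p6), where 21698 matched by identifier, 91 did not and 0 changed. Where 1 of the 19938 genes had several probe sets, the most variable one by interquartile range was used, and the lower 50% by interquartile range were dropped, leaving 9969 genes tested. The 4 group means were fitted with limma 3.58.1 in R 4.3.3 (lmFit, contrasts, eBayes, two-sided). Calls needed a Benjamini-Hochberg adjusted p under 0.05 over all genes tested and a difference of at least 1.3-fold (0.379 on the log2 scale). Intervals are 95% limma intervals, errors of differences are standard errors (SE), and medians of gene lists cover all measured members.

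Lix1, Cyp4f39, Fam169a and Islr, the gene lists (paralogs, acylceramide, YAP, mesenchymal and nuclear envelope genes) and the marker lists (sympathoadrenal, neuronal, glia, fibroblast, immune, endothelial) were chosen with earlier results of these data known. Of the marker lists, the neuronal one had 4 of 6 genes above the 95th percentile of the sensory receptor genes, glia 3 of 6, immune 2 of 6 and endothelial 1 of 4, and limma called 0 of the 5, 2, 4 and 3 tested in KD cells in either state, with 0 to 3 of a list at an unadjusted p under 0.05. Named genes were to be, by rule, the 4 genes, their paralogs, the 3 most alike by Pearson r, the 2 nearest measured neighbours on each side, the other largest falls and called list members. Not all of the paralogs and nearest neighbours are given in the text. Called neighbours farther away, Wiz, Isoc1, Igfbp5 and Il13ra1 were named after their values were seen. The RefSeq table gave promoter windows of 250 bases and gene order. Alternatives were no filter, the mean of probe sets, repeated quantile normalisation, median centring, array weights, an intensity trend with robust prior, only the groups of a comparison, a replicate block, no fold cutoff, and each array left out.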

Additional observations from a re-analysis of the deposited data

Results flagged for a closer look

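The interaction of Lix1, its RA response in KD cells minus the one in controls, was -0.82 on the log2 scale (SE 0.15). It was made of a fall of 0.57 after RA in KD cells and a level 0.25 higher after RA in control cells. All 3 KD arrays after RA were below the 3 proliferating KD arrays, and all 3 control arrays after RA were above the 3 proliferating control arrays. Lix1 had been selected on the 2 KD differences that make up this value, so it is given as a description, without a test. Its KD readings of 5.58 after RA and 6.15 in proliferating cells lie in the range of the sensory receptor genes, where the size of a difference is not a measure of its RNA. With single arrays left out the interaction of Lix1 was -0.96 to -0.72. The share of called genes in this comparison was 1.24%.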

How the results depend on the processing

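All 4 genes stayed past 1.3-fold lower in KD cells, with no overlap between groups, under all 21 settings in both states. They were selected on these large differences, so this is a description and lends the differences no support. The share of all genes with no overlap between groups was not counted, so nothing is read from the 4 genes against it. With no fold cutoff 2 of the 4 were called for RA in KD cells and 1 for RA in control cells, Islr being added in both. Of the 9969 genes tested, 3652 and 3298 were called at that setting, so nothing is read from these counts. For the interaction, 0 to 1 of the 4 genes passed the cutoffs when single arrays were left out, Lix1 being the 1. Lix1 was selected on the 2 KD differences that make up this value. The count is therefore a description and not a test, and nothing is read from it. Lix1 did not pass without proliferating control array 1, 2 or 3 (interaction -0.80, -0.85 and -0.82) or control array 1 or 3 after RA (-0.79 and -0.81). The same held without proliferating KD array 2 or 3 (-0.87 and -0.72) or KD array 3 after RA (-0.75). The Lix1 fall after RA in KD cells was called in all settings (-0.70 to -0.46, adjusted p 4.92e-05 to 0.0133). In control cells the Lix1 response to RA had an adjusted p of 0.0447 with the intensity trend. On only the groups of the comparison it was 0.0114, and both were under the fold cutoff. The fit on only the groups of a comparison could not be run for the interaction, which needs all 4.

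Counts of called genes changed by over 1.5 times without the fold cutoff, to 3726, 3485, 3652, 3298 and 206 against 769, 694, 991, 931 and 124 (KD after RA, KD proliferating, RA in KD, RA in control, interaction), and the interaction count was 41 to 137 with single arrays left out. The called genes of the lists around the 4 numbered 2 after RA and 5 in proliferating cells, 12 and 13 without the fold cutoff, 1 after RA with the mean of probe sets, and 1 to 3 and 3 to 5 with single arrays left out. The 12 and 13 stand beside 3726 and 3485 of all 9969 genes tested, so nothing is read from that rise. Set against all genes instead of sensory receptor genes, the shares at or below the KD level were, after RA and in proliferating cells, 16.4% and 26.7% for Lix1, 29.8% and 28.9% for Cyp4f39, 40.6% and 38.7% for Fam169a and 68.1% and 73.0% for Islr, and with olfactory receptor genes alone the share for Islr in proliferating KD cells was 99.9%. With 10 neighbours on each side 10.0% of those tested were called in proliferating KD cells. Ranked by Spearman's rho, 2 of the 12 most alike genes were shared with the Pearson lists.

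Replicate numbers in the labels are shared between groups. Deviations of same-numbered arrays correlated at -0.09 to 0.22 (5 of 18 pairs over 0.1), against -0.23 to 0.14 for other pairs (3 of 36), and 7 of 12 arrays matched their own number best, a hint from the data and not from the design. The labels name no shared source and not every same-numbered pair was over 0.1, so the numbers were not taken to pair the arrays. A replicate block left the RA calls of the 4 genes as they were, and gave 94 called genes for the interaction in place of 124. With the block the Fam169a response to RA in control cells (0.16) had a limma adjusted p of 0.0192, still under the fold cutoff.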
